A study of Mus musculus with 20 samples.

Results

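Ubiquitin and proteasome genes were described in the livers of 20 individual mice, in 4 groups of 5: control mice without antibiotics, control mice with antibiotics (ABX), mice given anti-CD40 without ABX, and mice given anti-CD40 with ABX. The sources used here do not give the strain, sex or age of the mice, the antibody clone and its schedule, the nature of the control treatment, or which antibiotics were given. The members were selected on their names (symbols starting Psm, Usp, Ube2, Ube3, Ube4, Uba, Trim, Rnf, Fbxo, Fbxl, Fbxw or Cul) and on a total of 20 or more counts over all 20 libraries, outside the stretch of mouse chromosome 17 that holds the major histocompatibility complex. The rule left Fbxw10 just outside, with 6 counts, and Trim43a just inside, with 24. This gave 51 members among 2990 attributed genes with 20 or more counts. A low-count filter left 43 of them among 2200 tested genes.

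Ubiquitin is a small protein that cells attach to other proteins. An activating enzyme (E1) hands it to a conjugating enzyme (E2, here most of the Ube2 genes), and a ligase (E3) passes it to the target. Many RING ligases (Rnf and Trim genes) and HECT ligases (Ube3 genes) act alone. Cullins are scaffolds on which F-box proteins or other adaptors present the target. Ubiquitin-specific proteases (Usp genes) remove the mark, and the proteasome, a barrel-shaped core capped by a regulatory particle (both with Psm genes), degrades many marked proteins. CD40 is a receptor of the tumour necrosis factor receptor family on antigen-presenting cells, and it signals through adaptor proteins that themselves work with ubiquitin.

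The deposited counts had been made from mouse alignments at human exon coordinates, so each member was measured over the part of its exons that such an interval happened to cover. The median member was measured over 288 bp (range 58 to 2391), which is 5.0% of its exon length. The measured exon was mostly coding in 24 members and mostly 3′ untranslated in 11. The counted intervals of 13 members also crossed the body of another gene, and those of 38 did not. Of 409 protein-coding mouse genes with these name prefixes, 138 lay under any counted interval, so the members are a small sample of the pathway. All coordinates are on mm10. Some counted intervals also reach into stretches between genes. Since intervals differ in length and also take reads from introns, levels are compared between groups of mice and not between genes. Levels are given as CPM, counts scaled to a common library total after TMM normalisation.

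The exon stretches that stand for the genes the results turn on are shown here, 1 stretch for each gene, to make plain how little of each transcript was read. They are the coding parts of measured intervals, read from the mouse GRCm38 genome on the strand of the gene, all in lower case because no base is singled out.
Psma6, exon 5 of 7, chr12:55412187-55412365: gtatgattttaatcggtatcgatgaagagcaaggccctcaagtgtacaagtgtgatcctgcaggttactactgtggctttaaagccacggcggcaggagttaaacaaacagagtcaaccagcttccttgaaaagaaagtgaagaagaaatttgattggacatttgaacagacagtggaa
Psmd2, exon 18 of 21, chr16:20661816-20661873: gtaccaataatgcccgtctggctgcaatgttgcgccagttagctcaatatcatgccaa
Ube2e2, exon 3 of 5, chr14:18630318-18630431: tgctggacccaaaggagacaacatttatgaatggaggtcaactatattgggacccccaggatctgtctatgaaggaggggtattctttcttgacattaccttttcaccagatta
Rnf213, exon 11 of 67, chr11:119418074-119418299: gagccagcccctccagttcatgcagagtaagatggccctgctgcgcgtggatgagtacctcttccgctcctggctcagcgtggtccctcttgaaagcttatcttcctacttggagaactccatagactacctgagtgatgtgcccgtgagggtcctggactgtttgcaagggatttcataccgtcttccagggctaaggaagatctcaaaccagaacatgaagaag
Usp24, exon 18 of 68, chr4:106368723-106368825: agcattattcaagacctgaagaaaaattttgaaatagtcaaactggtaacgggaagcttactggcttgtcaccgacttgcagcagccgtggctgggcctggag
Usp34, exon 17 of 80, chr11:23370239-23370339: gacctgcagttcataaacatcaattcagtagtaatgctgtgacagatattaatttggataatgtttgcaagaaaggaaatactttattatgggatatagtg

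The libraries held between 5053014 and 7618736 counts. The members together took 0.0992% to 0.136% of the counts in control mice and 0.154% to 0.186% in anti-CD40 mice, so the groups did not overlap. This share moved together with the scaling between libraries. The TMM factors ran from 0.777 to 0.974 in control mice and from 1.01 to 1.32 in anti-CD40 mice. Under library totals alone, the median log2 fold change of all 2200 genes for anti-CD40 rose from 0.03 to 0.27 without ABX and from 0.02 to 0.37 with ABX. Fold changes below are relative to the TMM scale. The labels also give a plate column, which is partly confounded with the groups. Column 3 held all control mice with ABX and control mice 6 to 8 without ABX. Column 4 held control mice 9 and 10, all anti-CD40 mice with ABX and mouse 16, and column 5 held anti-CD40 mice 17 to 20 without ABX. The anti-CD40 comparison with ABX therefore runs wholly between columns, and a plate term rests on the groups without ABX, each of which sat in 2 columns. With that term 735 of all 2200 genes were called for anti-CD40 without ABX and 690 with ABX, where 1333 and 1133 were called without it.

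Some cell type markers also moved with the antibody. In liver as a whole, fewer cells of a type and less RNA per cell cannot be told apart. Summed over the 5 hepatocyte markers measured of 8 listed, levels were 153070 to 264850 CPM in control mice and 45955 to 98442 CPM in anti-CD40 mice. Of those 5, 4 were lower and 1 (Fgfr4) was higher without ABX, and with ABX 3 were lower and 1 was higher. Alb made up most of the sum, with a mean of 159630 CPM in controls without ABX, beside 3634 for Cps1 and 463 for Asgr1. The monocyte and macrophage markers (3 of 9 measured) summed to 106 to 239.9 CPM in controls and 245 to 971 CPM with anti-CD40, with Lyz2 and Ms4a7 higher and Adgre1 lower in both comparisons. The T cell markers (3 of 9 with counts) summed to at most 1.34 CPM in controls and 3.15 to 7.23 CPM with anti-CD40. The sinusoidal endothelial markers (3 of 6 measured) summed to 89.0 to 145 CPM in controls and 14.5 to 102 CPM with anti-CD40. Of these, Stab2 was called lower in both comparisons, Stab1 with ABX alone and Pecam1 in neither. The stellate cell and matrix markers (2 of 6 measured) summed to 75.8 to 214 CPM in controls and 6.79 to 129 CPM with anti-CD40. Both, Col3a1 and Lum, were called lower with ABX alone. None of the 6 neutrophil markers had attributed counts, and of the 4 B cell markers only Cd79b had any, at 1.58 to 5.44 CPM over all mice. Of 5 Kupffer cell markers only Marco had counts, at 3.36 to 93.1 CPM in controls and 22.9 to 133 CPM with anti-CD40. It was called higher with ABX alone. Among the cholangiocyte markers 2 of 5 were measured. Sox9 rose in both comparisons (log2 fold changes of 3.05 and 2.43), and Pkhd1 fell without ABX at -1.18 (adjusted p = 0.0046) and had -0.68 with ABX (adjusted p = 0.098). The part of these cell types in the results below was not tested.

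Anti-CD40 moved the members in both directions. Without ABX, 27 of the 43 tested members passed the test (edgeR's quasi-likelihood test, adjusted p under 0.05 over all 2200 genes), 12 higher and 15 lower, against a background of 60.6% of all tested genes called, 31.8% higher and 28.8% lower. With ABX, 20 of the 43 passed, 11 higher and 9 lower, against 51.5% of all genes, 26.6% higher and 24.9% lower. The members' shares, 62.8% and 46.5%, lie near those backgrounds, so the number of calls is no result about ubiquitin genes. Their median log2 fold change was -0.21 without ABX and -0.13 with ABX, beside 0.03 and 0.02 for all tested genes. Under library totals, the members' calls were 16 higher and 8 lower without ABX and 17 higher and 3 lower with ABX, so the split between directions moves with the scaling. The calls of all genes moved likewise. Under library totals 932 of 1337 calls were higher without ABX, and 1035 of 1347 with ABX. The counts by class given below stand beside the same backgrounds.

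**Figure D1:**
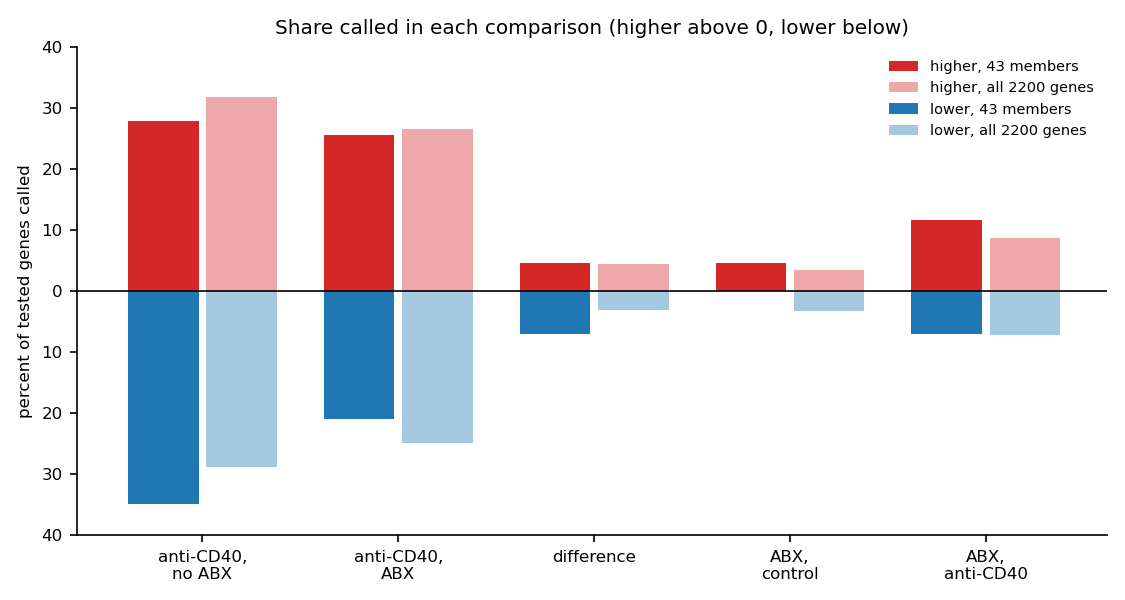
Percent of tested genes called higher (above 0) and lower (below 0) in each of the 5 comparisons, for the 43 tested members (dark) and all 2200 tested genes (pale). The anti-CD40 bars are tall for both sets, for example 60.6% of all genes called without ABX, and the members' bars lie close to those of all genes.

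The 2 anti-CD40 comparisons share no mice. In both, 10 members were higher (Cul9, Psma6, Psmd2, Rnf115, Rnf149, Rnf213, Ubap1, Ubash3b, Ube2e2 and Usp16) and 7 were lower (Cul3, Rnf128, Ube2w, Usp24, Usp34, Usp36 and Usp54). No member was called in opposite directions. A further 10 were called without ABX alone and 3 with ABX alone, and 13 in neither. The log2 fold changes had the same sign in 38 of 43 members, with r = 0.76 across members, which are not independent replicates. Over all 2200 tested genes 475 (21.6%) were higher in both and 438 (19.9%) lower in both, 81.7% had the same sign, and r was 0.893. The members' shares, 23.3%, 16.3% and 88.4%, lie near those of all genes, so the likeness of the 2 comparisons is no result about the members. Being called in 1 comparison alone does not show a difference, which was tested separately below.

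**Figure D2:**
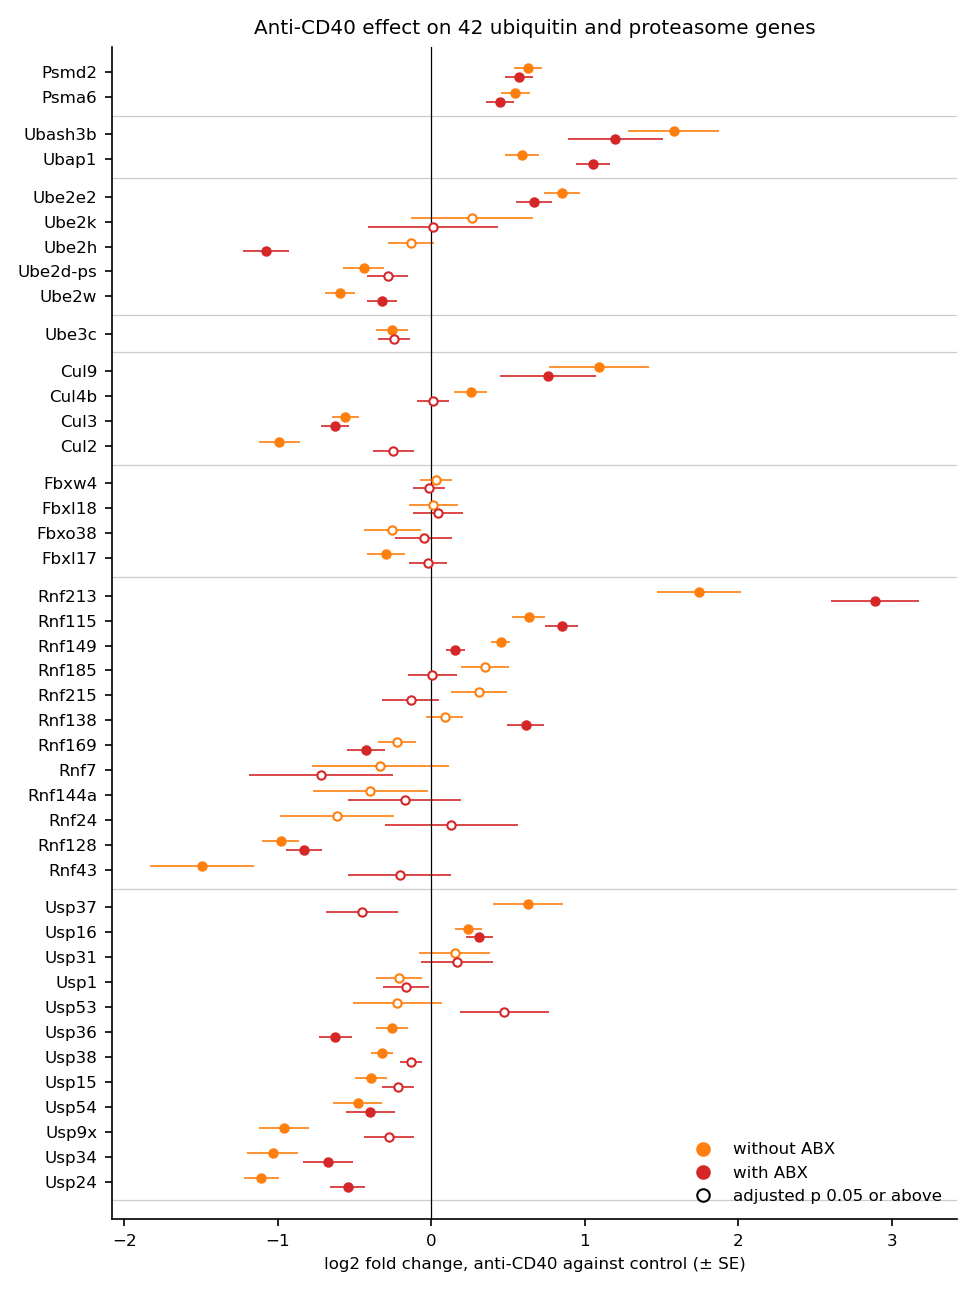
Log2 fold change of anti-CD40 against control (x axis, ± SE) for 42 of the 43 tested members, grouped by name class, without ABX (orange) and with ABX (red). Filled points passed adjusted p under 0.05. Rnf213 lies farthest to the right, at 1.75 and 2.89, and 7 of the 15 filled orange points left of 0 belong to the Usp class.

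Of the proteasome subunits, Psma6 was higher after anti-CD40, as was the count attributed to Psmd2, which mostly covers other genes. Psma6, an alpha subunit of the core ring, was measured over 274 bp of coding exon at chr12:55412187-55414498, inside an interval of 3061 bp that lies wholly in the gene. In mice without ABX it lay at 131, 134, 138, 161 and 142 CPM in controls and at 216, 167, 212, 204 and 234 CPM after anti-CD40. With ABX the values were 138, 145, 152, 156 and 155 CPM in controls and 204, 247, 191, 173 and 201 CPM after anti-CD40. Every anti-CD40 mouse lay above every control mouse with the same ABX status. Its log2 fold change was 0.55 ± 0.09 (SE) without ABX (adjusted p = 2.0e-05) and 0.45 ± 0.09 with ABX (adjusted p = 2.6e-04). With plate column as a term, the change with ABX was 0.27 and no longer called.

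Psmd2, a scaffold subunit of the regulatory particle also called Rpn1, was measured over 58 bp of coding exon at chr16:20661816-20661873. Without ABX it lay at 103, 111, 118, 107 and 118 CPM in controls and at 178, 136, 174, 179 and 197 CPM after anti-CD40. With ABX the values were 95.1, 97.7, 112, 100.2 and 108 CPM in controls and 138, 168, 137, 150.02 and 169.9 CPM after anti-CD40. Again the anti-CD40 mice all lay above the controls, with log2 fold changes of 0.63 ± 0.09 without ABX (adjusted p = 1.6e-06) and 0.57 ± 0.09 with ABX (adjusted p = 9.0e-06). The counted interval covers 2871 bp, of which 80 bp lie in the body of Psmd2 and 2791 bp only in the bodies of other genes, among them Eif4g1, Ece2 and Fam131a. The reads of Psmd2 and of those genes were counted as 1 number and cannot be told apart. Psma8, a core subunit known from testis, had 104 counts in all and was not tested.

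The proteasome lists were almost unmeasured. Of 14 core alpha and beta subunits only Psma6 had counts that could be attributed, and of 29 genes of the regulatory particle, its assembly and its associated proteins only Psmd2 and Uchl5. Uchl5, a deubiquitinase that binds the regulatory particle, fell in both comparisons: its log2 fold change was -0.41 ± 0.11 without ABX (adjusted p = 0.0035) and -0.57 ± 0.12 with ABX (adjusted p = 2.1e-04). None of the 8 genes of the immunoproteasome, the interferon-induced form of the core, and its activator had attributed counts, so nothing can be said of it here.

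Neither member whose symbol starts Uba is an activating enzyme. Ubap1, a subunit of the complex that sorts ubiquitinated membrane proteins at endosomes, was measured over 479 bp of its 3′ untranslated region at chr4:41389115-41389593. It lay at 51.98, 59.3, 50.7, 65.04 and 70.9 CPM in controls without ABX and at 80.5, 90.5, 93.01, 74.1 and 111 CPM after anti-CD40. In mice with ABX it was at 54.2, 49.9, 46.5, 43.3 and 40.6 CPM in controls and 86.5, 106, 93.6, 96.1 and 105 CPM after anti-CD40. The groups did not overlap in either comparison, and the log2 fold change was 0.59 ± 0.11 without ABX (adjusted p = 5.3e-05) and 1.06 ± 0.11 with ABX (adjusted p = 1.5e-08). With plate column as a term, the change without ABX was 0.24 and no longer called.

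Ubash3b, a phosphatase with a ubiquitin-binding domain that dampens T cell receptor signalling, was measured over 1903 bp of its 3′ untranslated region. Without ABX its level was 2.38, 3.23, 2.999, 2.38 and 1.68 CPM in controls and 8.08, 9.35, 8.74, 5.88 and 5.99 CPM after anti-CD40, and the groups lay apart. With ABX it was 1.12, 3.25, 3.35, 1.77 and 3.51 CPM in controls and 8.65, 5.78, 7.85, 4.93 and 2.62 CPM after anti-CD40, where the lowest treated mouse fell among the controls. The fitted log2 fold change was 1.58 ± 0.30 (adjusted p = 6.8e-05) and 1.20 ± 0.31 (adjusted p = 0.0021). Ubash3b is known from blood cells, and the T cell markers Cd8a and Cd8b1 rose in the same comparisons, with log2 fold changes of 2.52 and 2.70 without ABX. Their part in its level was not tested.

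Of the members whose symbols start Ube2, 5 of 6 were tested, and in each anti-CD40 comparison 1 rose and 2 fell. Not every one encodes an E2: the pseudogene Ube2d-ps was 1 of the 2 that fell without ABX. Ube2e2, an E2 of the UBE2E family, lay at 18.9, 21.8, 25.5, 25.1 and 20.05 CPM in controls and 43.4, 33.55, 45.8, 43.3 and 34.8 CPM after anti-CD40 without ABX. Under ABX the values were 23.4, 20.2, 18.2, 21.6 and 19.9 CPM and 27.04, 38.9, 35.3, 32.8 and 30.6 CPM. No treated mouse reached down to the controls, and the log2 fold change was 0.85 ± 0.12 (adjusted p = 1.0e-06) and 0.67 ± 0.12 (adjusted p = 4.3e-05). Ube2w, which attaches ubiquitin to the first residue of proteins, was lower, with log2 fold changes of -0.60 ± 0.10 (adjusted p = 1.1e-05) and -0.32 ± 0.10 (adjusted p = 0.0079). The fall of Ube2w with ABX depends on the scaling: under library totals it was 0.02. That call was also lost with plate column as a term (-0.39). Ube2d-ps, a pseudogene of the Ube2d family whose reads may come from its near-identical relatives, had a log2 fold change of -0.44 ± 0.13 without ABX (adjusted p = 0.0062), and this call was lost under library totals (-0.19) and without the interval that crosses Urgcp (-0.35). Ube2k was not called, and Ube2cbp was not tested.

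Ube2h, an E2 that works with the CTLH ligase, differed with antibiotics. It lay at 11.2, 8.402, 10.5, 10.1 and 9.098 CPM in controls without ABX, and at 8.74, 7.04, 9.89, 10.7 and 8.83 CPM after anti-CD40 without ABX. With ABX the level was 13.5, 14.3, 14.7, 13.3 and 14.02 CPM in controls and at 6.85, 6.46, 7.23, 8.16 and 4.32 CPM after anti-CD40. The control mice with ABX were the highest group, above every other mouse, and the anti-CD40 mice with ABX were the lowest group by mean. The log2 fold change of anti-CD40 was -0.13 ± 0.15 without ABX (adjusted p = 0.46) and -1.08 ± 0.15 with ABX (adjusted p = 1.7e-06). It was measured over 123 bp of its 3′ untranslated region, and the rest of the counted interval of 4377 bp lies between genes.

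The only HECT ligase of the Ube3 kind measured was Ube3c, which extends ubiquitin chains on proteins already at the proteasome. Its log2 fold change was -0.25 ± 0.10 without ABX (adjusted p = 0.037) and -0.24 ± 0.10 with ABX (adjusted p = 0.054). The call without ABX was lost under library totals (-0.02) and with plate column as a term (-0.01).

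Cullins moved in different directions. Cul3, the scaffold of ligases with BTB-domain adaptors such as KEAP1, lay at 39.4, 41.7, 39.2, 45.4 and 49.9 CPM in controls and 29.9, 32.8, 29.9, 25.8 and 27.9 CPM after anti-CD40 without ABX. In the ABX groups it was at 41.7, 51.3, 46.9, 40.3 and 42.4 CPM and 27.4, 29.2, 30.5, 27.7 and 29.02 CPM. Every treated mouse lay below every control, and the log2 fold change was -0.56 ± 0.09 (adjusted p = 1.0e-05) and -0.63 ± 0.09 (adjusted p = 2.6e-06). Its adaptor Keap1, which is outside the name rule, rose in both comparisons, by 0.51 ± 0.10 without ABX (adjusted p = 8.4e-05) and 1.06 ± 0.10 with ABX (adjusted p = 2.0e-09).

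Cul2, the scaffold of the VHL ligase, lay at 13.7, 10.8, 12.5, 14.1 and 13.3 CPM in controls without ABX and 6.76, 4.99, 7.59, 6.804 and 6.46 CPM after anti-CD40, with no overlap. With ABX it lay at 10.4, 12.1, 11.7, 9.72 and 11.3 CPM in controls and 10.3, 8.16, 10.4, 8.47 and 9.26 CPM after anti-CD40, where the groups overlapped. The log2 fold change was -0.99 ± 0.13 without ABX (adjusted p = 7.8e-07) and -0.25 ± 0.13 with ABX (adjusted p = 0.12). The counted interval of Cul2 covers 8222 bp. Of these, 1547 bp lie in its own body, with 83 bp of exon, and 6675 bp lie between genes. Cul9, an atypical cullin with a ligase domain of its own, was higher in both comparisons, at 1.09 ± 0.32 (adjusted p = 0.0056) and 0.76 ± 0.31 (adjusted p = 0.045), on low levels of 1.19 to 7.75 CPM. Both Cul9 calls were lost with plate column as a term (1.27 and 0.75). The call for Cul9 with ABX was also lost when any 1 of mice 1 to 5, 11, 14 or 15 was left out (0.48 to 0.97 over all 10 mice). Cul4b, the scaffold that works with DDB1, was called higher without ABX at 0.26 ± 0.11 (adjusted p = 0.038). With plate column as a term its sign turned (-0.10), and the groups overlapped.

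Of 5 F-box members tested, too few to set against the 60.6% and 51.5% of all genes called, only Fbxl17, which removes wrongly paired BTB proteins, was called, without ABX (-0.30 ± 0.12, adjusted p = 0.041), and that call was lost under library totals (-0.05) and with the plate term (-0.49). Fbxl18, Fbxo38 and Fbxw4 lay between -0.25 and 0.04 in the 2 comparisons.

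Of 15 RING ligase members, 12 were tested. Without ABX 3 rose and 2 fell, and with ABX 4 rose and 2 fell. Rnf213, a very large ligase whose gene is induced by interferon, had the highest log2 fold change of the 43 tested members in both comparisons. It was measured over 436 bp of coding exon at chr11:119418074-119420219. Without ABX it lay at 13.8, 15.2, 19.3, 9.06 and 14.2 CPM in controls and 40.3, 73.8, 34.6, 41.9 and 48.4 CPM after anti-CD40. In mice with ABX it was at 15.2, 14.996, 11.7, 5.303 and 10.7 CPM in controls and 109, 58.8, 104, 99.2 and 59.9 CPM after anti-CD40. The lowest treated mouse, at 34.6 CPM, lay above the highest control mouse, at 19.3 CPM. Its log2 fold change was 1.75 ± 0.27 without ABX (adjusted p = 2.3e-05) and 2.89 ± 0.28 with ABX (adjusted p = 7.1e-08). Both calls held in every alternative in which Rnf213 was tested. The difference between these effects, 1.14 ± 0.39, did not pass the test (adjusted p = 0.082). Of 24 genes of the interferon-inducible ubiquitin list, Rnf213 was the only one with attributed counts.

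Rnf115 rose in both comparisons. It lay at 34.5 ± 3.39 CPM (SD, n = 5) in controls and 53.6 ± 5.38 CPM after anti-CD40 without ABX, and at 36.5 ± 4.56 and 65.9 ± 10.001 CPM with ABX. The fitted log2 fold change was 0.63 ± 0.11 (adjusted p = 1.6e-05) and 0.85 ± 0.11 (adjusted p = 2.8e-07). The call without ABX was lost with plate column as a term (0.45).

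Rnf149, a membrane RING ligase, rose in both comparisons. It lay at 118, 118, 118, 119.5 and 120.3 CPM in controls without ABX and 152, 161, 176, 166 and 158 CPM after anti-CD40. Under ABX the values were 109, 122, 116, 106 and 109 CPM in controls and 126, 127, 128, 117 and 128 CPM after anti-CD40. The groups lay apart without ABX and overlapped with ABX, and the log2 fold change was 0.45 ± 0.06 (adjusted p = 8.5e-07) and 0.16 ± 0.06 (adjusted p = 0.036). The call with ABX was lost under median-of-ratios size factors (0.15) and with plate column as a term (0.14).

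Rnf128, known as GRAIL and for its part in T cell anergy, fell. It lay at 35.8, 30.4, 36.8, 41.4 and 36.4 CPM in controls and 16.7, 15.5, 18.5, 23.7 and 17.5 CPM after anti-CD40 without ABX. With ABX the level was 37.4, 44.4, 36.8, 42.2 and 48.5 CPM and 24.7, 22.1, 19.2, 24.6 and 27.2 CPM. All treated mice lay below all controls, with log2 fold changes of -0.98 ± 0.12 (adjusted p = 1.9e-07) and -0.83 ± 0.12 (adjusted p = 2.3e-06). Of its counted interval of 4996 bp, 364 bp lie only in the body of Tbc1d8b.

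Rnf43, which removes Wnt receptors from the cell surface, was lower without ABX, at -1.49 ± 0.34 (adjusted p = 5.2e-04), from 7.12 ± 2.61 to 2.53 ± 1.198 CPM (SD, n = 5). With ABX its log2 fold change was -0.21 ± 0.34 (adjusted p = 0.63), and the difference between the effects did not pass the test (adjusted p = 0.099). The call was lost with plate column as a term (-1.13). Rnf138, a ligase at DNA breaks, was higher with ABX, at 0.62 ± 0.12 (adjusted p = 1.4e-04), against 0.09 ± 0.12 without ABX (adjusted p = 0.55). Only 61 bp of its exon were measured, and its counted interval of 11113 bp lies for 7518 bp in the bodies of Rnf125 and Mep1b alone. Rnf169, a reader of ubiquitin marks at DNA breaks, was lower with ABX, at -0.42 ± 0.12 (adjusted p = 0.0063), a call lost under library totals (-0.07) and with the plate term (-0.49). The other RING ligases (Rnf144a, Rnf185, Rnf215, Rnf24 and Rnf7) were not called in either comparison. The 3 Trim members (Trim16, Trim43a and Trim67) had 24 to 57 counts in all and were not tested, nor were Rnf13, Rnf222 and Rnf8, with 45 to 93 counts.

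Of the ubiquitin-specific proteases, 12 of 12 members were tested, with 7 lower and 2 higher without ABX and 4 lower and 1 higher with ABX, against 60.6% and 51.5% of all genes called. This split depends on the scaling. Under library totals 3 were lower and 2 higher without ABX, and none lower and 3 higher with ABX. Under median-of-ratios size factors none of the calls of this class for anti-CD40 was lost. Of all genes called under library totals, 932 of 1337 were higher without ABX and 1035 of 1347 with ABX. The median log2 fold change of the class was -0.29 without ABX and -0.24 with ABX, and -0.04 and 0.11 under library totals. Usp24, a large protease of many substrates, lay at 43.9, 44.4, 36.8, 43.2 and 43.8 CPM in controls and 21.6, 22.7, 18.1, 19.2 and 16.7 CPM after anti-CD40 without ABX. In the ABX groups it was at 38.3, 43.002, 40.9, 29.9 and 41.1 CPM in controls and 30.1, 21.2, 26.7, 29.9 and 24.7 CPM after anti-CD40. The groups lay apart without ABX, and with ABX 1 control mouse overlapped the treated mice. The log2 fold change was -1.11 ± 0.11 (adjusted p = 1.1e-08) and -0.54 ± 0.11 (adjusted p = 2.7e-04), and the call with ABX was lost under library totals (-0.20).

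Usp34, which acts on the Wnt pathway through axin, lay at 22.8, 25.5, 32.5, 22.4 and 31.001 CPM in controls and 10.6, 18.1, 11.2, 14.7 and 10.6 CPM after anti-CD40 without ABX. With ABX it lay at 26.1, 29.8, 30.7, 22.3 and 28.05 CPM and 20.4, 11.6, 19.01, 19.9 and 15.1 CPM. Every treated mouse lay below every control, with log2 fold changes of -1.03 ± 0.17 (adjusted p = 1.0e-05) and -0.67 ± 0.16 (adjusted p = 0.0014). The second call was lost under library totals (-0.32) and with plate column as a term (-0.66). Its 3 separately counted parts were all lower, with log2 ratios of -1.18, -0.90 and -0.89 without ABX and -0.74, -0.53 and -0.69 with ABX.

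Usp9x, a large X-linked protease, lay at 57.7, 55.7, 54.7, 59.2 and 49.9 CPM in controls and 26.7, 36.6, 23.9, 27.5 and 27.6 CPM after anti-CD40 without ABX, with no overlap. In mice with ABX it was at 47.5, 56.4, 50.04, 42.4 and 40.04 CPM in controls and at 52.8, 23.8, 41.2, 47.6 and 30.3 CPM after anti-CD40, where 3 treated mice lay among the controls and 2 below them. Its log2 fold change was -0.96 ± 0.16 (adjusted p = 2.7e-05) and -0.27 ± 0.16 (adjusted p = 0.16). The difference, 0.68 ± 0.23, did not pass the test (adjusted p = 0.07).

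Among the smaller changes, Usp36, a nucleolar protease, was lower in both comparisons, at -0.26 ± 0.10 (adjusted p = 0.037) and -0.62 ± 0.11 (adjusted p = 2.3e-05). Usp54 was lower at -0.48 ± 0.16 (adjusted p = 0.013) and -0.40 ± 0.16 (adjusted p = 0.042). All 4 of these calls were lost under library totals, and all but that of Usp36 with ABX were lost with plate column as a term. Usp15 and Usp38 were lower without ABX alone, at -0.39 ± 0.11 and -0.32 ± 0.07, and these calls too were lost under library totals and with plate column as a term. Usp16, which removes ubiquitin from histone H2A, was higher at 0.24 ± 0.09 (adjusted p = 0.022) and 0.31 ± 0.09 (adjusted p = 0.0045), and both calls were lost with plate column as a term (0.10 and 0.01). Usp37, a protease of the cell cycle, was higher without ABX at 0.63 ± 0.23 (adjusted p = 0.019), a call lost with plate column as a term (0.36) and without the low-count filter (0.61). Usp1, Usp31 and Usp53 were not called.

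**Figure D3:**
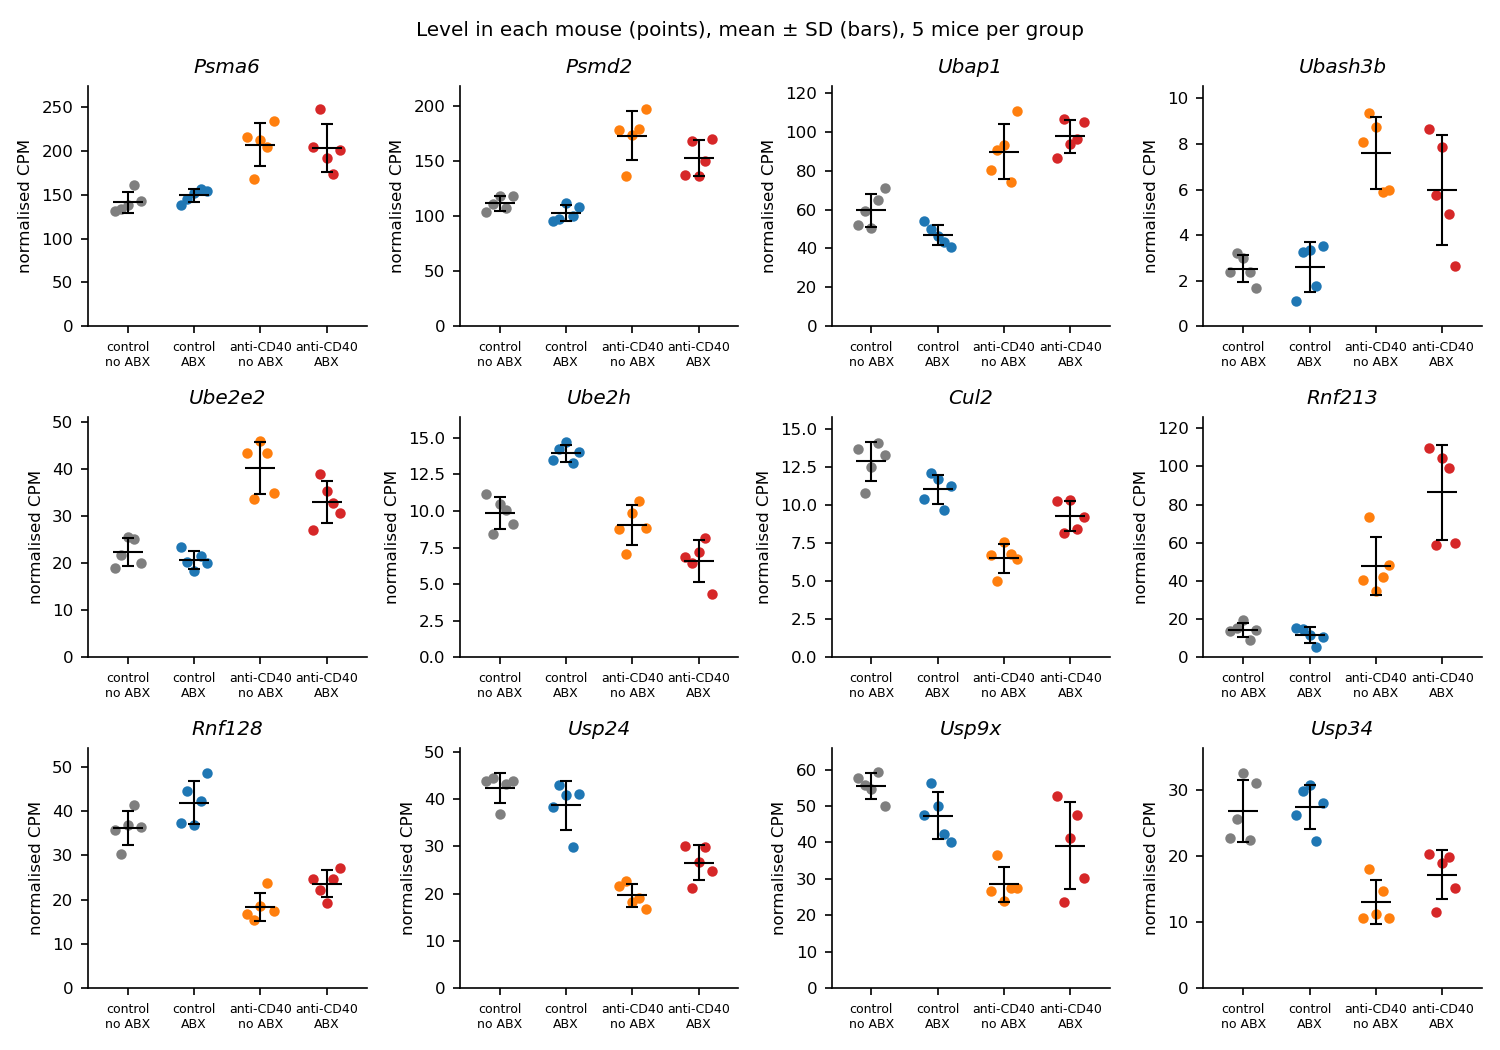
TMM-normalised CPM (y axis, starting at 0) of 12 members in each of the 20 mice, as points, with group mean ± SD, 5 mice per group. Psma6, Psmd2, Ubap1, Ube2e2 and Rnf213 are higher and Rnf128 and Usp34 lower in all anti-CD40 mice than in the controls of the same ABX status, and Ube2h is highest in control mice with ABX.

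Where 2 or more separately counted parts of a member each had at least 100 counts, they could be compared. This held for 9 members, and in 7 all parts had the same sign in each anti-CD40 comparison. Usp24 showed unequal parts. Its first part, over 220 bp, had log2 ratios of -0.53 without ABX and -0.73 with ABX. Its second part, over 147 bp with most of the counts, had -1.30 and -0.49.

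The antibiotic comparisons gave few calls. In control mice 2 members were called, both higher with ABX, against 6.68% of all genes called (3.45% higher, 3.23% lower). These were Ube2h, at 0.50 ± 0.15 (adjusted p = 0.039), and Rnf169, at 0.43 ± 0.12 (adjusted p = 0.037). In anti-CD40 mice 8 members were called, 5 higher and 3 lower with ABX, against 15.9% of all genes (8.68% higher, 7.23% lower). The higher ones were Cul2 (0.52), Rnf128 (0.36), Rnf138 (0.55), Rnf213 (0.85) and Usp24 (0.43), on the log2 scale. The lower ones were Rnf149 (-0.38), Ube2h (-0.45) and Usp36 (-0.32). Under library totals neither call in control mice held, and 3 other members were called there, all lower with ABX (Psmd2, Ubap1 and Usp38). Of all 2200 genes, 174 were called in that setting, only 35 of them higher. Ubap1 (-0.34, adjusted p = 0.066) was also called lower when mouse 1 or mouse 8 was left out, and Ube2h and Rnf169 were not. Of the 10 calls on the TMM scale, 2 in control mice and 8 in anti-CD40 mice, none was kept with plate column as a term, where 77 of all 2200 genes were called between the ABX groups of control mice and 5 between those of anti-CD40 mice. Within plate column 3 alone, with 3 control mice without ABX, the changes of Ube2h and Rnf169 were 0.47 and 0.45 and neither was called.

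The anti-CD40 effect differed between mice with and without ABX in 5 members, 2 with a higher and 3 with a lower effect under ABX, against 7.55% of all genes (4.36% and 3.18%). Cul2 fell less with ABX, by a difference of 0.74 ± 0.19 (adjusted p = 0.019), and so did Usp24, by 0.56 ± 0.16 (adjusted p = 0.033). Ube2h fell with ABX, with a difference of -0.95 ± 0.21 (adjusted p = 0.0097). Rnf149 rose less, by -0.30 ± 0.09 (adjusted p = 0.039). Usp37 went from 0.63 without ABX to -0.45 with ABX, a difference of -1.08 ± 0.32 (adjusted p = 0.042), on levels under 6 CPM. With plate column as a term none of the 5 differences was called, nor was that of any of the 2200 genes, so this loss is not particular to the members. In Usp24 the difference is seen in its second counted part and not in its first, and its sign turned (-0.18) where only intervals with at least 150 bp of exon were used.

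**Figure D4:**
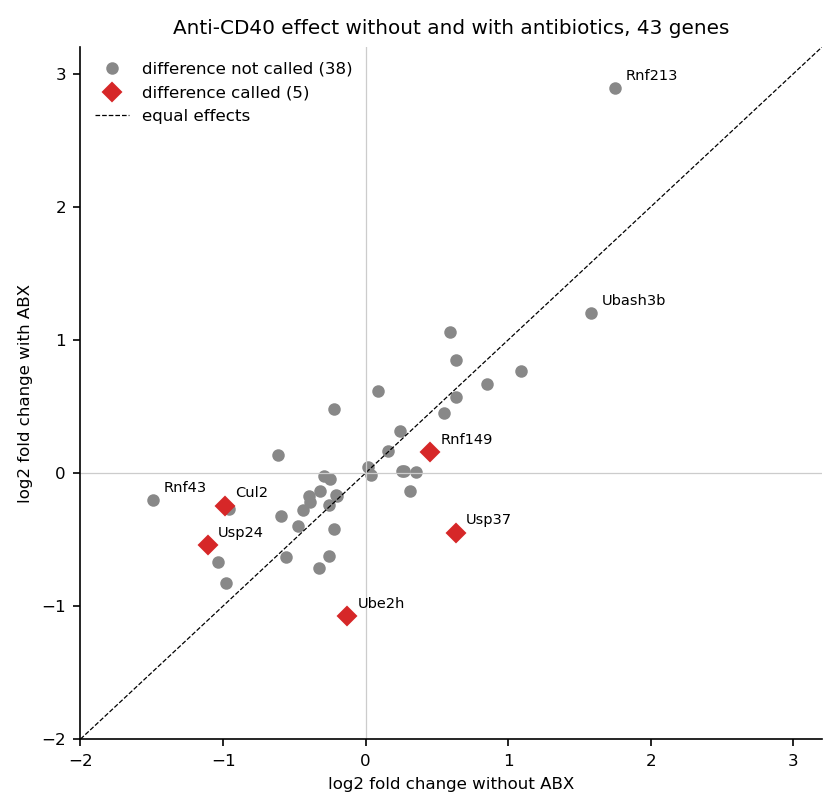
Log2 fold change of anti-CD40 without ABX (x axis) against that with ABX (y axis) for the 43 tested members, with the line of equal effects dashed. Red diamonds are the 5 members whose difference passed the test; Ube2h and Usp37 lie farthest below the line among them, and Cul2 and Usp24 lie above it.

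Of the 27 calls for anti-CD40 without ABX, 13 held in every alternative in which the gene was tested, 6 higher and 7 lower: Psma6, Psmd2, Rnf149, Rnf213, Ubash3b and Ube2e2, and Cul2, Cul3, Rnf128, Ube2w, Usp24, Usp34 and Usp9x. With ABX this was true of 10 of 20, 7 higher and 3 lower: Psmd2, Rnf115, Rnf138, Rnf213, Ubap1, Ubash3b and Ube2e2, and Cul3, Rnf128 and Ube2h. Psmd2, Rnf128 and Rnf138 were not measured in the alternative that drops intervals crossing other genes. The alternative with at least 150 bp of exon could not test Cul2, Cul3, Psmd2, Rnf115, Rnf128, Rnf138, Ube2e2 or Ube2h. Each of these except Ube2e2 had less measured exon than that. For Ube2e2 it drops the counted part with 114 bp of exon, which held 3529 of its 3616 counts. None of the 15 calls in the other 3 comparisons held in every alternative. How many calls of all genes held in this way was not determined, so these counts are no result about the members. Leaving out each of the 10 or 20 mice compared in turn ended 18 of the calls of named members at least once. For anti-CD40 without ABX these were Cul4b (mice 6, 7, 8, 9, 18, 19 and 20, with log2 values of 0.16 to 0.31), Fbxl17 (mice 6, 7, 10, 16, 18 and 20, with log2 values of -0.42 to -0.24), Ube3c (mice 6, 8, 17, 18 and 19, with log2 values of -0.31 to -0.22), Usp16 (mice 6, 7, 8, 16, 19 and 20, with log2 values of 0.19 to 0.29), Usp36 (mice 7, 9, 16 and 20, with log2 values of -0.30 to -0.21) and Usp37 (mice 6, 9 and 20, with log2 values of 0.50 to 0.75). For anti-CD40 with ABX these were Cul9 (mice 1, 2, 3, 4, 5, 11, 14 and 15, with log2 values of 0.48 to 0.97), Rnf149 (mice 1, 4, 5, 11, 12, 13 and 15, with log2 values of 0.14 to 0.19) and Usp54 (mice 1, 2, 4, 5, 14 and 15, with log2 values of -0.47 to -0.32). For the difference between effects these were Rnf149 (mice 2, 3, 5, 6, 7, 8, 9, 10, 11, 13, 14, 15, 18, 19 and 20, with log2 values of -0.31 to -0.26), Usp24 (mice 4, 6, 10, 11, 14 and 18, with log2 values of 0.49 to 0.65) and Usp37 (mice 1, 2, 3, 4, 6, 8, 9, 11, 13, 14, 15, 17, 18 and 20, with log2 values of -1.20 to -0.91). For ABX in control mice these were Rnf169 (mice 1, 2, 3, 4, 5, 6, 8, 9 and 10, with log2 values of 0.34 to 0.50) and Ube2h (mice 1, 2, 3, 4, 5, 7, 8, 9 and 10, with log2 values of 0.44 to 0.55). For ABX in anti-CD40 mice these were Rnf128 (mice 11, 14, 15, 16, 17, 18 and 20, with log2 values of 0.31 to 0.49), Rnf213 (mice 11, 13, 14, 16, 18 and 19, with log2 values of 0.76 to 1.07), Ube2h (mice 11, 12, 13, 15, 16, 18, 19 and 20, with log2 values of -0.53 to -0.32) and Usp36 (mice 11, 12, 13, 14, 16, 17, 18, 19 and 20, with log2 values of -0.36 to -0.25). The mice named are those whose omission ended the call, and the values span all omissions.

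Ubiquitin genes outside the name rule were also called about as often as all genes. From lists of 225 pathway genes, 22 tested genes were not members, of which 4 rose and 10 fell without ABX and 6 rose and 6 fell with ABX. That is 63.6% and 54.5% called, near the 60.6% and 51.5% of all tested genes. How the calls of genes outside the name rule, Uchl5 and Keap1 among them, fare under the alternatives was not determined. Birc2, a ligase of CD40 and tumour necrosis factor signalling also called cIAP1, rose most, from 8.34 ± 2.04 to 53.9 ± 8.097 CPM without ABX (SD, n = 5). Its log2 fold change was 2.69 ± 0.16 (adjusted p = 5.2e-13), and 2.85 ± 0.16 with ABX (adjusted p = 2.3e-13). Of the other NF-kB pathway genes measured, Traf6 had 0.06 ± 0.08 (adjusted p = 0.51) and 0.22 ± 0.08 (adjusted p = 0.018), and Btrc was not called. Among 10 ligases outside the rule, too few to set against the 28.8% of all genes called lower, 7 fell without ABX. These included Ubr3, a ligase with a UBR box, at -1.03 ± 0.12 (adjusted p = 9.0e-08), and Xiap at -0.62 ± 0.12 (adjusted p = 1.5e-04). With ABX 3 of the 10 fell and 2 rose, Keap1 and Ubr4 (0.40 ± 0.08, adjusted p = 2.5e-04). Of 7 tested deubiquitinases and ubiquitin receptors, 2 rose and 2 fell without ABX, with Otud5 at 0.57 ± 0.08 (adjusted p = 2.5e-06) and the autophagy receptor Tax1bp1 at 0.23 ± 0.07 (adjusted p = 0.0075). Ufm1, the one ubiquitin-like modifier measured, had 0.00 ± 0.08 without ABX (adjusted p = 0.97). With ABX it was called lower, at -0.20 ± 0.08 (adjusted p = 0.045).

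Promoters of 39 members were found in the RefSeq table of GRCm38.p6, which gives 300 bases around each start. The core of the interferon-stimulated response element, GAAA and GAAA spaced by any 2 bases, on either strand, was in 3.44% of all 32851 promoters and in none of the 39. The core of the antioxidant response element, TGACNNNGC on either strand, was in 12.4% of all promoters and in 6 of the 39 (Rnf222, Ube2d-ps, Ube2e2, Ube3c, Usp34 and Usp36). The NF-kB consensus site, searched after the values were known, was in 8.46% of all promoters and in 5 of the 39 (Psma6, Rnf213, Rnf7, Trim43a and Ubap1). The promoters of the 2 called members with both a measured coding stretch and this match are shown, with the matched 10 bases in capitals. A match is a description of the letters and not evidence of binding.
Rnf213 promoter, chr11:119389849-119390148, plus strand: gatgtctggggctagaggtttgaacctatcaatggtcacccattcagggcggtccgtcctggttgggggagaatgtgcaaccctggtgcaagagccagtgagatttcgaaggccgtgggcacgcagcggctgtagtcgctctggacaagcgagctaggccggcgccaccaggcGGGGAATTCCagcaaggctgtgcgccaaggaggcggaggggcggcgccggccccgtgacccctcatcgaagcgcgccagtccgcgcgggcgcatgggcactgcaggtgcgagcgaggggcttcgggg
Psma6 promoter, chr12:55398575-55398874, plus strand: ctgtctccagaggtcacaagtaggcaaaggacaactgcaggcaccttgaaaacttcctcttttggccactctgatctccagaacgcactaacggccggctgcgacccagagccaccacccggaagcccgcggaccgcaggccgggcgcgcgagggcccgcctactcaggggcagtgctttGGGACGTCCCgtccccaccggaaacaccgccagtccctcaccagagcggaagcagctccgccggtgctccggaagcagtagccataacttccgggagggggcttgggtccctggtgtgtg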

How the data were processed

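Liver RNA of 20 mice (4 groups of 5) was sequenced, 1 library per mouse. The submitters' processing notes name Trimmomatic 0.38, HISAT2 2.1.0 and the build mm10. The deposited values are raw counts of fragments from featureCounts 1.5.0-p2, run without strand over the exons of a human GRCh38 annotation, per the file headers. The human identifiers were ignored, and the intervals were read as mm10 and intersected (bedtools 2.31.1) with mouse GENCODE M21 exons. A feature over exactly 1 gene by at least 50 bp was attributed to that gene: 7463 of 58395 features, 5552 genes, 46.35% of counts. Members on chromosome 17 between 33.5 and 37.3 Mb were left out. Antisense and overlapping transcripts cannot be separated.

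Counts were tested with edgeR 4.0.16 (R 4.3.3; TMM, filterByExpr, robust quasi-likelihood F-test, two-sided, 1 fit of 20 libraries), with Benjamini-Hochberg adjustment over 2200 genes and a threshold of 0.05. CPM were computed with TMM-scaled totals. On simulated data with 200 genes changed 2-fold, for anti-CD40 without ABX over 2200 genes, 82.5% were recovered with 8 false calls. The simulation raised as many genes as it lowered and held no plate column effect. It therefore cannot speak to the scaling or to plate column. Alternatives were library totals, median-of-ratios size factors, DESeq2 1.42.0, no filter, other overlap minimums, plate column as a term and leaving out each mouse; attribution to intervals within 1 gene body was added after seeing the data. Named were all Psm and Uba members, up to 4 called members per class and direction in each anti-CD40 comparison by fold (mean of at least 1 CPM), up to 6 per direction in the other comparisons by adjusted p, the 2 with the highest level per kb in each class, and up to 4 genes per pathway list by p. Other members were named after their values were seen. The members and lists were chosen with earlier results of these data known. The values of 1 member are not reported here.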

Additional observations from a re-analysis of the deposited data

Results flagged for a closer look

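In 128 groups of 5 mice over the 32 named members, 6 held a mouse whose gap to its nearest neighbour was large against the range of the group. Chance alone gives such a flag in about 1 in 20 groups. Among anti-CD40 mice with ABX, mouse 14 was low for Cul4b (40.8 CPM, others 47.6 to 49.6) and for Rnf149 (117 CPM, others 126 to 128), and mouse 11 was high for Ube2d-ps (21.99 CPM, others 14.8 to 16.7). Control mouse 4 with ABX was high for Trim43a (0.884 CPM, others 0 to 0.185). Control mouse 8 without ABX was low for Usp24 (36.8 CPM, others 43.2 to 44.4). Anti-CD40 mouse 17 without ABX was high for Usp9x (36.6 CPM, others 23.9 to 27.6).

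For 5 members a test of the difference found an anti-CD40 effect with ABX unlike that without, in edgeR's quasi-likelihood fit. On the log2 scale the difference was 0.74 for Cul2 and 0.56 for Usp24, both lowered less with ABX. It was -0.95 for Ube2h, lowered with ABX, and -0.30 for Rnf149, raised less with ABX. It was -1.08 for Usp37, which was 0.63 without ABX and -0.45 with ABX. In each case the plate column differed between the groups compared, and with it as a term no difference was called for these 5 or for any of the 2200 genes.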

How the results depend on the processing

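No paired analysis was possible because the mice carry no number shared between groups. Of 60 called results for named members, 58 kept their call under median-of-ratios size factors, 58 under DESeq2, 58 with an overlap of 1 bp, 43 without the low-count filter and 39 under library totals. With plate column as a term 26 kept it. Of 38 that could be tested with at least 150 bp of exon, 34 kept it, and of 49 testable within 1 gene body, 47 did. When each mouse was left out in turn, 18 of the 60 lost the call at least once.

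The 27 members called for anti-CD40 without ABX became 14 with plate column as a term. The 20 called with ABX became 13 with that term and 13 (of 27 tested) with 150 bp of exon. Over all genes, 1333 calls without ABX became 735 with the plate term. With ABX 1133 became 690 with that term and 857 (of 1630 tested) with 150 bp. The 5 called differences became 3 under library totals, 1 without the filter, 8 under DESeq2, 2 with 150 bp and 0 with plate column, and 2 to 7 when a mouse was left out. Over all genes, 166 called differences became 137, 122, 201, 128 and 0 in the same order. They were 88 to 194 when a mouse was left out. The 2 calls for ABX in control mice, both higher, became 3 under library totals, all lower, and 1 without the filter, 1 with 150 bp, 0 with plate column, 0 within plate column 3, and 0 to 1 when a mouse was left out. Over all genes, 147 such calls became 174, 130, 129, 77 and 44 in the same order. They were 89 to 137 when a mouse was left out. The 8 calls for ABX in anti-CD40 mice became 3 under library totals, 4 without the filter, 3 with 150 bp, 0 with plate column, and 4 to 11 when a mouse was left out. Over all genes, 350 such calls became 273, 291, 276 and 5 in the same order. They were 225 to 364 when a mouse was left out. Signs turned for Cul4b without ABX with plate column (-0.10), for Fbxl17 (0.33) and Ube2w (0.023) with ABX under library totals, and, with 150 bp, for the Usp24 difference (-0.18) and for Usp24 between ABX groups of anti-CD40 mice (-0.086). Testing fewer members accounts for part of the lower counts with 150 bp; otherwise the cause was not tested.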
